A study of Mus musculus with 9 samples.

Results

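The 37 genes described here lie on mouse chromosome 13 within 5 Mb of Ripk1, the locus that is altered in 1 of the 3 genotypes of the study. They were taken from a list of neighbours by position, with Ripk1 itself left out, and are 37 of the 23420 genes in the deposited matrix. All 37 are annotated as protein coding, 13 start before Ripk1 and 24 after it, and their starts lie between 0.431 kb (Serpinb6a) and 4.66 Mb (Eef1e1) from the start of Ripk1. All positions given are on GRCm38 (GENCODE M21), where Ripk1 spans chromosome 13 from 34002363 to 34037147 on the forward strand. In 33 of the 37 there were enough reads for a test, and these 33 were read from a fit over 13317 genes.

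RNA was measured in cerebral endothelial cells sorted as CD31+CD45- from the brains of C57BL/6 mice aged 6 months. WT mice carried neither alteration. APP_PS1 mice carried the APP/PS1 transgenes, a widely used amyloid model, and APP_PS1xRIPK1KD mice carried them together with the RIPK1KD alteration, so the effect of that alteration without the transgenes was not measured. Each genotype had 3 libraries, each labelled as the cells of 1 mouse, and the meaning of KD, the promoter of the transgenes and the way the Ripk1 allele was made are not stated in the labels.

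When an allele is made in one strain and bred onto another, chromosome around it can travel with it, and genes beside the altered site can then differ for reasons unrelated to the altered gene. The neighbours of Ripk1 matter for endothelium also on their own account. Foxq1, Foxf2 and Foxc1 are forkhead transcription factors that lie side by side in mouse and human: Foxf2 and Foxq1 are established markers of brain endothelial cells, Foxf2 is needed in brain pericytes for a tight blood-brain barrier, and Foxc1 acts in the vessels and meninges of the developing brain. Beside them lie serpins of clade B, inhibitors of intracellular proteases, a pair of beta-tubulins, and enzymes and RNA-processing factors that most cells use.

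Total expected counts ran from 16263792 (APP_PS1 replicate 1) to 52413200 (APP_PS1 replicate 3), so a count of 0 allows up to 0.0541 to 0.189 CPM (counts scaled to the TMM-adjusted size of the library), depending on the library and taking 3 counts as the floor. Endothelial markers summed to 19514 to 23312 CPM in all libraries, and leukocyte markers to 0.703 to 3.55 CPM. Although every mouse was labelled male, replicates 1 and 2 of each genotype carried 264 to 534 CPM of Xist and at most 0.434 CPM of 4 Y-linked transcripts, whereas the replicate 3 libraries carried 150 to 185 CPM of the Y-linked transcripts. This split is balanced over the genotypes, and values from replicates 1 and 2 only are given beside the genes below. Ripk1 itself stood at 45.0, 48.1 and 34.9 CPM in WT, 75.3, 52.9 and 40.9 CPM in APP_PS1 and 31.4, 44.9 and 35.5 CPM in APP_PS1xRIPK1KD. The genotypes overlapped, so the amount of the transcript does not separate the labels. Ripk1 was nominally lower in APP_PS1xRIPK1KD than in APP_PS1 (log2 fold change -0.59 ± 0.23 SE, edgeR unadjusted p = 0.023, adjusted p = 0.980). The unadjusted p was under 0.05 in 16 of 19 alternative fits of these libraries, which is a description and no further test. The labels do not say whether the alteration touches the counted reads. Without APP_PS1 replicate 1, the library with most Ripk1, the Ripk1 difference was -0.33, with an unadjusted p over 0.05. In replicates 1 and 2 only it was -0.75.

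None of the 33 tested neighbours passed an adjusted p of 0.05 in edgeR's quasi-likelihood test in any of 4 comparisons. The question was whether the flanks of the altered locus differ. Only APP_PS1 carries the transgenes as APP_PS1xRIPK1KD does, so the comparison with it alone holds them equal. APP_PS1xRIPK1KD against the mean of both genotypes without the alteration uses all libraries, but it also carries part of any transgene difference. There, 0 of 33 neighbours passed against 0.00751% of all tested genes, and the lowest adjusted p of a neighbour was 0.831. Against APP_PS1 alone 0 of 33 passed (0.00751% of all genes, lowest 0.980), and against WT alone 0 of 33 (0.0375% of all genes, lowest 0.705). In APP_PS1 against WT, which both lack the alteration, 0 of 33 passed (0.0225% of all genes, lowest 0.822). DESeq2 and limma-voom also called 0 of the neighbours in each comparison. Over all genes, DESeq2 called 44 against the mean, 20 against APP_PS1, 63 against WT and 45 in APP_PS1 against WT. Limma-voom called 0, 0, 2 and 2 in the same order. With so few genes called, 0 of 33 does not set the neighbours apart from other genes. The 3 comparisons with APP_PS1xRIPK1KD share its libraries and are not independent of each other.

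Without adjustment, 4 neighbours reached p under 0.05 in the comparison with the mean of both other genotypes. These were Nqo2, Tubb2b and Rreb1 (higher) and Serpinb6b (lower), which is 12.1% of the 33 against 5.44% of all tested genes. Over APP_PS1, where the transgenes are equal, the count was 1, Nqo2 (3.03%, against 4.78% of all genes). It was 3 (9.09%, against 6.18%) over WT, and 0 in APP_PS1 over WT (6.14% of all genes). The shares lay on either side of the background.

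The sizes of the differences were small for most neighbours. In APP_PS1xRIPK1KD against the mean of the others, 17 neighbours had a fitted difference above 0 and 16 below, with a median of 0.0014 on the log2 scale against 0.0069 over all genes, and a median absolute difference of 0.133 against 0.184. The 95% interval of the difference stayed within a doubling or halving for 25 of the 33 (75.8%, against 63.6% of all genes), so for 8 neighbours a change of that size was not bounded at this depth and spread. The summed CPM of the 37 genes ran from 1648 to 1769.8 over the 9 libraries.

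**Figure D1:**
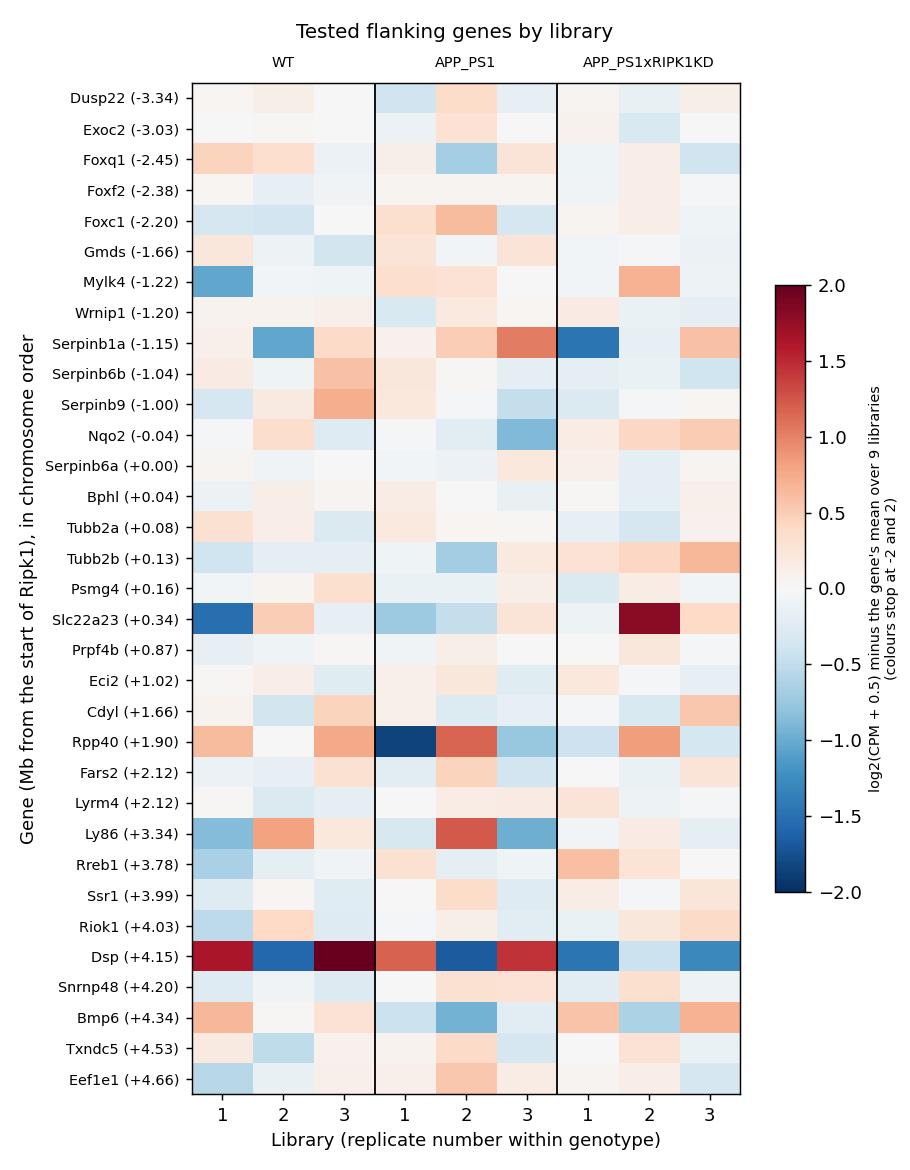
Level of each of the 33 tested neighbours in each library, in chromosome order from top to bottom, as log2(CPM + 0.5) minus the gene's own mean over the 9 libraries (red above, blue below; black lines part the genotypes). Most rows are pale in all 9 columns, Dsp shows blocks of deep colour in single libraries of every genotype, and Tubb2b is the row whose 3 APP_PS1xRIPK1KD libraries all lie above the other 6.

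The neighbours span a wide range of levels. Averaged over the libraries, 6 stood at 100 CPM or more, 19 between 10 and 100, 7 between 1 and 10 and 5 below 1. Per kilobase of annotated exon, the beta-tubulin Tubb2a came first with 124.5 CPM (97.3 to 152 over the 9 libraries), above Foxf2 with 53.8 (47.9 to 59.1). Serpinb9 with 41.1 (28.5 to 66.0) and Foxq1 with 35.0 (21.2 to 46.5) followed and overlapped each other, as Serpinb9 did with Foxf2. Foxc1 stood at 5.68 (4.21 to 8.62) per kilobase, apart from Foxf2 and Foxq1.

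Of the forkhead trio, promoters of Foxf2 and Foxc1 are shown because these genes are the endothelial factors whose flanking position the comparison is about, and that of Nqo2 because it starts 37.7 kb before Ripk1 and had the lowest unadjusted p of the neighbours. The sequences are RefSeq's on GRCm38.p6, from 250 bases before to 50 after a gene's start, and 33 of the 37 neighbours had one. Capitals mark matches on either strand to the CCAAT box (CCAAT), to the GC box (letters GGGCGG) or to the TATA box (letters TATAAA), which do not overlap each other here.
Foxf2, chr13:31625566-31625865, forward strand: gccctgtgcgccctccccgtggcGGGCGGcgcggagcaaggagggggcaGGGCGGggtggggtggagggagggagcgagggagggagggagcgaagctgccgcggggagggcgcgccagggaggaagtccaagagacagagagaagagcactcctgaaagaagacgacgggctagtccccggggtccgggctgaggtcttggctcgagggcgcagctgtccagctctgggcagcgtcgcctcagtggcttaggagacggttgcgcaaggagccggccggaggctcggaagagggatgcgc
Foxc1, chr13:31806396-31806695, forward strand: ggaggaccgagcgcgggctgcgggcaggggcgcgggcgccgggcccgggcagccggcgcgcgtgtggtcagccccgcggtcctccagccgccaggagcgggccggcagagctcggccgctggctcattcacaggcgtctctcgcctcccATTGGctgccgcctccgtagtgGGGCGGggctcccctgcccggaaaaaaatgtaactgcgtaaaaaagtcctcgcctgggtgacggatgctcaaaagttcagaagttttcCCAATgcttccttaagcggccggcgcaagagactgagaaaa
Nqo2, chr13:33964409-33964708, forward strand: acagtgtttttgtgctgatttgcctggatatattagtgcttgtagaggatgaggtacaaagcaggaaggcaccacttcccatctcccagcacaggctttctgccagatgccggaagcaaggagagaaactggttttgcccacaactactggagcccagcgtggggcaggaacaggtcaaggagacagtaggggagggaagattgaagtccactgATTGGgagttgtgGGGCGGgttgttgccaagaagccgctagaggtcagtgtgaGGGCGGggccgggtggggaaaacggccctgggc
The Foxf2 window holds 27 CpG pairs and 2 GC boxes, and that of Foxc1 holds 32 CpG pairs, 2 CCAAT boxes and 1 GC box. The Nqo2 window holds 7 CpG pairs, 1 CCAAT box and 2 GC boxes. Over the 32851 RefSeq promoters of this length, 37.4% hold the CCAAT box, 35.7% the GC box and 13.6% the TATA box. Searched as well were the forkhead core GTAAACA (3.65% of promoters) and the antioxidant element core TGACNNNGC (12.4%), whose letters are in none of these 3 windows. The RNA counts bear on none of these sites, and a match is a description only.

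Foxq1 (31556134 to 31560976, forward strand) stood at 225, 209 and 153 CPM in WT, 179, 103 and 197 CPM in APP_PS1 and 155, 181 and 125 CPM in APP_PS1xRIPK1KD. All 3 genotypes overlapped, and the lowest library was an APP_PS1 one. The log2 difference was -0.29 ± 0.23 (SE) in APP_PS1 over WT, -0.054 ± 0.23 in APP_PS1xRIPK1KD over APP_PS1 and -0.35 ± 0.23 over WT. Against the mean of both it was -0.20 with a 95% interval from -0.64 to 0.24. Single libraries moved the value of APP_PS1 over WT, which was -0.058 without APP_PS1 replicate 2, -0.18 without WT replicate 1 and -0.44 without WT replicate 3. In replicates 1 and 2 only it was -0.63, with an unadjusted p under 0.05, and APP_PS1xRIPK1KD then differed from APP_PS1 by 0.26, from WT by -0.37 and from the mean by -0.057. In the annotation, 65.7% of the 50-base stretches of Foxq1 also occur in A530084C06Rik, a gene that is not among the rows of the matrix. The Foxq1 count may therefore include reads of that gene.

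Foxf2 (31625816 to 31631403, forward strand) was the steadiest of the trio. It stood at 130, 113 and 121 CPM in WT, at 131.37, 131.11 and 131.93 CPM in APP_PS1, and at 121, 140 and 125 CPM in APP_PS1xRIPK1KD. The 3 APP_PS1 libraries lay above all WT libraries by a small margin (log2 difference 0.12 ± 0.12, edgeR adjusted p = 0.931), and the APP_PS1xRIPK1KD libraries spread around them. That genotype differed from APP_PS1 by -0.034 ± 0.12, from WT by 0.082 ± 0.12, and from the mean of both by 0.024 with a 95% interval from -0.20 to 0.24. In replicates 1 and 2 only the difference from the mean was 0.046.

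Foxc1 (31806633 to 31812476, forward strand) stood at 25.5, 24.6 and 32.6 CPM in WT, 40.6, 50.4 and 25.5 CPM in APP_PS1 and 33.6, 35.6 and 30.6 CPM in APP_PS1xRIPK1KD. Its APP_PS1 libraries were the most spread, with the third of them at the level of WT. The log2 difference of APP_PS1 over WT was 0.49 ± 0.23 (edgeR adjusted p = 0.822). It was 0.25 without APP_PS1 replicate 2, 0.72 without APP_PS1 replicate 3 and 0.86 in replicates 1 and 2 only, the last 2 with an unadjusted p under 0.05. APP_PS1xRIPK1KD differed from APP_PS1 by -0.22 ± 0.23, from WT by 0.27 ± 0.23 and from the mean of both by 0.024 with a 95% interval from -0.41 to 0.46. The difference from APP_PS1 was 0.025 without APP_PS1 replicate 2 and -0.40 in replicates 1 and 2 only, where that from WT was 0.47.

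Mural cells also express Foxf2 and Foxc1. Markers of mural cells (8 of 8 detected) summed to 9.54 to 42.2 CPM in WT, 154 to 195 CPM in APP_PS1 and 61.5 to 203 CPM in APP_PS1xRIPK1KD. Of these 8, 7 lay above WT without overlap in each of the latter genotypes. Over all genes, 10.9% (APP_PS1) and 12% (APP_PS1xRIPK1KD) lay apart from WT in either direction. In edgeR, 2 of the 8 passed an adjusted p of 0.05 in APP_PS1 over WT, among 3 genes in all. In APP_PS1xRIPK1KD 1 of the 8 passed over WT, among 5 genes in all, and 0 passed over APP_PS1. The part of mural cells in the Foxf2 and Foxc1 values was not tested, and in bulk libraries more cells of a type and more RNA per cell cannot be told apart. Among the neighbours, the levels most like Foxq1 over the 9 libraries were those of Dsp (Pearson r of log2 CPM 0.48), Gmds (0.47) and Psmg4 (0.25). For Foxf2 they were Snrnp48 (0.65), Txndc5 (0.63) and Serpinb1a (0.51), and for Foxc1 they were Eef1e1 (0.73), Txndc5 (0.73) and Ssr1 (0.60). These genes share libraries and depth, and the correlations are descriptions.

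**Figure D2:**
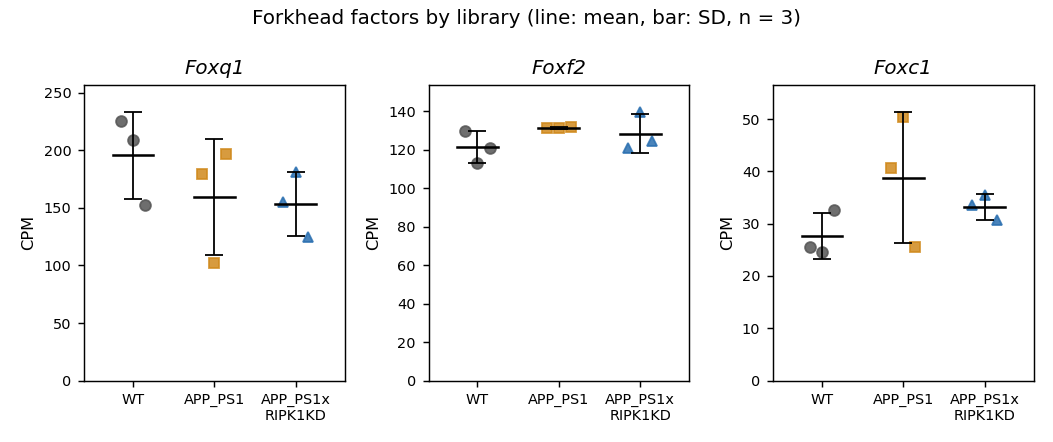
CPM of Foxq1, Foxf2 and Foxc1 in each library by genotype (points: libraries; line: mean; bar: SD, n = 3; axes start at 0). The genotypes overlap in every panel except Foxf2 in APP_PS1 against WT, where the 3 APP_PS1 points at 131.11 to 131.93 CPM sit just above the WT points.

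All forkhead genes and a list of endothelial factors give the setting, and both include Foxq1, Foxf2 and Foxc1. Of 45 forkhead genes in the matrix, 22 were tested and 0 passed the adjusted threshold in any comparison, with a median log2 difference of 0.050 in APP_PS1xRIPK1KD against the mean of the others. Of 26 transcription factors of brain endothelium, all 26 were tested and 0 passed. In the same comparison 4 of these 26 (15.4%) had an unadjusted p under 0.05, against 5.44% of all genes. All 4 were higher (2.71% of all genes in that direction).

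Within 200 kb of Ripk1 lie 6 neighbours, Serpinb6a, Nqo2, Bphl, Tubb2a, Tubb2b and Psmg4. In APP_PS1xRIPK1KD against the mean of the others, 2 of these 6 had an unadjusted p under 0.05, against 5.44% of all genes. Both were higher (2.71% of all genes in that direction), and they were the only 2 of the 6 with a difference above 0. The other 4 had p over 0.05 and differences between -0.21 (Tubb2a) and -0.020 (Serpinb6a).

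Nqo2 encodes a quinone reductase of the cytosol. It spans 33964687 to 33988443 on the forward strand and starts 37.7 kb before Ripk1. It stood at 30.2, 39.6 and 25.9 CPM in WT, 30.5, 26.2 and 16.5 CPM in APP_PS1 and 34.2, 41.2 and 44.3 CPM in APP_PS1xRIPK1KD. The latter libraries lay above all APP_PS1 libraries, and 1 WT library lay among them. The difference was 1.64-fold over APP_PS1 (log2 0.71 ± 0.24, 95% interval 0.19 to 1.24, edgeR adjusted p = 0.980) and 1.43-fold over the mean of the others (log2 0.52 ± 0.21, 0.073 to 0.96, adjusted p = 0.831). In APP_PS1 over WT it was -0.39 ± 0.24.

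The Nqo2 difference was smaller in replicates 1 and 2 only, the libraries with Xist. There it was 0.41 on the log2 scale over APP_PS1 and 0.26 over the mean of the others, both with an unadjusted p over 0.05. Without APP_PS1 replicate 3, whose level was the lowest, it was 0.50 over APP_PS1. Exons of Nqo2 and Serpinb6a overlap on opposite strands over 762 bases, 18.9% of Nqo2 exon bases and 14.1% of those of Serpinb6a, and the library method keeps no strand, so reads there cannot be assigned. Serpinb6a, a protease inhibitor that starts beside Ripk1 and also shares 241 exon bases with it, stood at 138, 126 and 133 CPM in WT, 128, 122 and 153 CPM in APP_PS1 and 141, 115 and 138 CPM in APP_PS1xRIPK1KD, and overlapped throughout.

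Tubb2b and Tubb2a encode near-identical beta-tubulins, subunits of microtubules. Tubb2b is the form best known from developing neurons. Tubb2b (34126748 to 34130466, reverse strand, 128 kb after Ripk1) stood at 4.10, 4.85 and 4.79 CPM in WT, 5.22, 3.24 and 6.46 CPM in APP_PS1 and 6.96, 7.58 and 9.08 CPM in APP_PS1xRIPK1KD. It was the 1 neighbour whose APP_PS1xRIPK1KD libraries lay apart from all 6 others (3.03% of the 33, against 2.7% of all genes). The difference from the mean was 1.65-fold (log2 0.72 ± 0.31, 95% interval 0.050 to 1.39, edgeR adjusted p = 0.884). It was 0.78 ± 0.37 over WT and 0.66 ± 0.37 over APP_PS1, and the latter was 0.44 without APP_PS1 replicate 2. In replicates 1 and 2 only the difference from the mean was 0.74, with an unadjusted p over 0.05.

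Tubb2a (34074274 to 34078007, reverse strand, 75.6 kb after Ripk1) stood at 245, 217 and 163 CPM in WT, 228, 205 and 202 CPM in APP_PS1 and 178, 157 and 210 CPM in APP_PS1xRIPK1KD, and overlapped. Of its 50-base stretches 45.6% occur in Tubb2b, as do 31.3% of those of Tubb2b in Tubb2a, so the far smaller Tubb2b count depends on how shared reads were split. Tubb2b amounted to 1.67%, 2.23% and 2.94% of Tubb2a in WT, 2.29%, 1.58% and 3.20% in APP_PS1, and 3.92%, 4.84% and 4.32% in APP_PS1xRIPK1KD. The last 3 shares lay above the other 6. They use the same Tubb2b counts as above, so they are no further result and cannot show how shared reads were split.

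Markers of choroid plexus (6 of 6 detected) separate the same libraries, with sums of 55.9 to 90.2 CPM in WT, 70.0 to 155 CPM in APP_PS1 and 183 to 319 CPM in APP_PS1xRIPK1KD. Most of each sum was Ttr, and 1 of the 6 markers lay above all other libraries without overlap. Of 6 neuronal markers, all 6 were detected, and their sums overlapped, at 105 to 229, 158 to 249 and 116 to 207 CPM in the same order. Most of each of these sums was Stmn2. Snap25, a synaptic protein, was the 1 neuronal marker above all other libraries without overlap, with 12, 23 and 31 counts in APP_PS1xRIPK1KD and at most 6 counts (0.12 CPM) in any other library. Over all tested genes, 2.7% lay apart from the other 6 libraries in either direction. Against WT alone, 2 of the 4 tested neuronal markers lay above without overlap and 1, Rbfox3, lay below. Rbfox3 stood at 0 to 0.43 CPM in APP_PS1xRIPK1KD and 0.56 to 1.05 CPM in WT. The part of other cells in the Nqo2 and Tubb2b values was not tested. The other 2 neighbours within 200 kb, Bphl (a hydrolase; 14.1 to 18.0 CPM, median 16.5) and Psmg4 (a chaperone of proteasome assembly; 12.8 to 19.8 CPM, median 15.2), differed from the mean by -0.036 ± 0.19 and -0.090 ± 0.20 on the log2 scale.

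**Figure D3:**
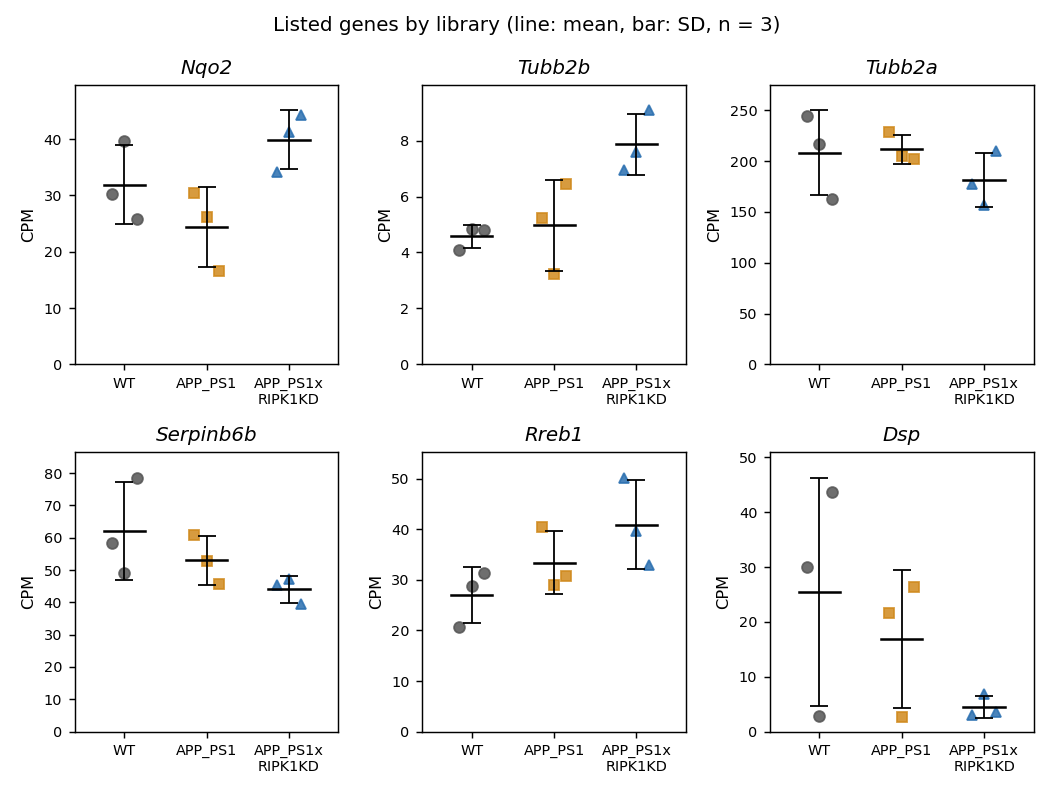
CPM in each library by genotype for 6 neighbours (points: libraries; line: mean; bar: SD, n = 3; axes start at 0). Tubb2b in APP_PS1xRIPK1KD, at 6.96 to 9.08 CPM, sits above all other libraries. Nqo2 sits above APP_PS1 but not above all of WT, and the Dsp points of WT and APP_PS1 fall into a high and a low level.

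The clade B serpins near Ripk1 include Serpinb6b, Serpinb9, an inhibitor of granzyme B, and Serpinb1a, an inhibitor of neutrophil proteases. Serpinb6b (32965209 to 32979067, forward strand) stood at 58.5, 49.0 and 78.6 CPM in WT, 60.8, 52.7 and 45.7 CPM in APP_PS1 and 45.2, 47.4 and 39.4 CPM in APP_PS1xRIPK1KD. The latter lay below all WT libraries, and the highest value was in WT replicate 3. The log2 difference was -0.50 ± 0.19 from WT (edgeR adjusted p = 0.715) and -0.38 ± 0.17 from the mean of the others (adjusted p = 0.888). From APP_PS1 it was -0.27 ± 0.19, with an unadjusted p over 0.05. Without WT replicate 3 the difference from WT was -0.29, and in replicates 1 and 2 only it was -0.22 from WT and -0.25 from the mean, all with an unadjusted p over 0.05. WT replicate 3 also held 356 CPM of the antigen-presentation gene Cd74, against 1.98 to 16.7 CPM in the other libraries, and its part in this value was not tested.

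Serpinb9 stood at 111, 159 and 231 CPM in WT, 161, 137 and 99.7 CPM in APP_PS1 and 114, 137 and 144 CPM in APP_PS1xRIPK1KD. Serpinb1a stood at 17.9, 7.83 and 21.8, then 17.7, 23.7 and 34.3, then 5.71, 14.8 and 25.3 CPM. Both overlapped between all genotypes. With TMM scaling, the fitted difference from the mean was below 0 for 4 of 4 listed serpins and for 7 of the 7 tested among 27 Serpinb genes in the matrix, with a median of -0.38 over the 7, against 6486 of 13317 genes below 0 and a median of 0.0069 over all tested genes. The serpin counts were the same with RLE scaling, upper-quartile scaling and with Rn45s left out. None of the 7 passed the adjusted threshold in edgeR, and 1 of them, Serpinb6b, had an unadjusted p under 0.05 (14.3%, against 5.44% of all genes).

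Farther out lie Rreb1 and Dsp, which reached an unadjusted p under 0.05 in APP_PS1xRIPK1KD against WT. Rreb1, a zinc finger transcription factor of the RAS pathway, spans 37778400 to 37952005 on the forward strand, 3.78 Mb from Ripk1. It stood at 20.8, 28.8 and 31.3 CPM in WT, 40.5, 28.9 and 30.8 CPM in APP_PS1 and 50.2, 39.6 and 32.9 CPM in APP_PS1xRIPK1KD. The latter lay above all WT libraries (log2 0.60 ± 0.22, edgeR adjusted p = 0.705), with APP_PS1 between and overlapping both. Against the mean of the others the difference was 0.45 ± 0.19 (adjusted p = 0.871), and 0.28, with an unadjusted p over 0.05, without APP_PS1xRIPK1KD replicate 1. Over APP_PS1 the difference was 0.30 ± 0.22, with an unadjusted p over 0.05. In replicates 1 and 2 only the differences were 0.86 from WT and 0.62 from the mean.

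Dsp encodes desmoplakin, the protein that ties desmosomes to intermediate filaments. It stood at 30.0, 2.82 and 43.7 CPM in WT, 21.7, 2.59 and 26.4 CPM in APP_PS1 and 3.06, 6.80 and 3.53 CPM in APP_PS1xRIPK1KD. In WT and in APP_PS1, replicate 2 lay at the level of APP_PS1xRIPK1KD, so the genotypes overlapped. The log2 difference from WT was -2.52 ± 1.06 (95% interval -4.95 to -0.088, edgeR adjusted p = 0.787), and the fit gave -1.62, with an unadjusted p over 0.05, with the replicate number as a block. In replicates 1 and 2 only it was -1.73, also with an unadjusted p over 0.05. The cause of the low replicates was not tested.

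In APP_PS1 against WT, 5 neighbours did not overlap, which is 15.2% of the 33 against 10.9% of all genes. These were Foxf2 and 4 others. Bmp6, a secreted ligand of the BMP family that liver endothelium uses to control iron, stood at 5.81, 3.56 and 4.41 CPM in WT and 2.45, 1.57 and 2.96 CPM in APP_PS1 (log2 -0.98 ± 0.52, edgeR adjusted p = 0.829). In APP_PS1xRIPK1KD it stood at 5.41, 2.08 and 5.95 CPM, which spans both, and in replicates 1 and 2 only the log2 difference of APP_PS1 over WT was -1.23. Snrnp48, a component of the minor spliceosome, stood at 18.6, 21.2 and 18.5 CPM in WT, 22.3, 27.7 and 27.5 CPM in APP_PS1 and 19.0, 28.1 and 20.7 CPM in APP_PS1xRIPK1KD, with a log2 difference of 0.41 ± 0.21 for APP_PS1 over WT (edgeR adjusted p = 0.829) and of 0.33 in replicates 1 and 2 only.

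Eef1e1, a scaffold protein of the aminoacyl-tRNA synthetase complex, stood at 4.16, 5.67 and 6.85 CPM in WT, 6.86, 9.45 and 7.07 CPM in APP_PS1 and 6.61, 7.01 and 4.94 CPM in APP_PS1xRIPK1KD. The log2 difference of APP_PS1 over WT was 0.49 ± 0.35 (edgeR adjusted p = 0.890), 0.32 without WT replicate 1 or APP_PS1 replicate 2 and 0.73 in replicates 1 and 2 only. Mylk4, a kinase related to myosin light chain kinases, was low, with 15 to 116 counts (0.44 to 2.65 CPM) over the 9 libraries. Its difference in APP_PS1 over WT was 0.74 ± 0.77 (edgeR adjusted p = 0.931), 0.38 without WT replicate 1 and 1.07 in replicates 1 and 2 only. Exons of Bmp6 share 224 bases with Txndc5 on the other strand. In APP_PS1xRIPK1KD against APP_PS1 the groups did not overlap for 2 neighbours, Nqo2 and Tubb2b (6.06%, against 9.98% of all genes), and against WT for 3, Tubb2b, Rreb1 and Serpinb6b (9.09%, against 12% of all genes).

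The median size of the differences did not fall steadily with distance from Ripk1. In APP_PS1xRIPK1KD against the mean of the others, the median absolute log2 difference was 0.176 for the 9 tested neighbours within 1 Mb, 0.124 for the 13 between 1 and 2.5 Mb and 0.173 for the 11 farther out. Unadjusted p under 0.05 was reached by 2 neighbours within 1 Mb (22.2%), 1 between 1 and 2.5 Mb (7.69%) and 1 farther out (9.09%), against 5.44% of all genes. The share was highest in the nearest group, where it rests on 2 genes. Another 32 genes of the matrix lie within 5 Mb, of which 14 were tested and 0 passed the adjusted threshold in edgeR. Of these 14, 1 had an unadjusted p under 0.05 in that comparison, the non-coding 4930447K03Rik between Tubb2a and Tubb2b, named after its values were seen. It had 9, 0 and 17 counts in WT, 10, 39 and 0 counts in APP_PS1 and 0 in all 3 APP_PS1xRIPK1KD libraries. Of 444 tested genes elsewhere on chromosome 13, 0 passed, and 17 were higher and 14 lower at an unadjusted p under 0.05 (6.98%, against 5.44% of all genes).

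**Figure D4:**
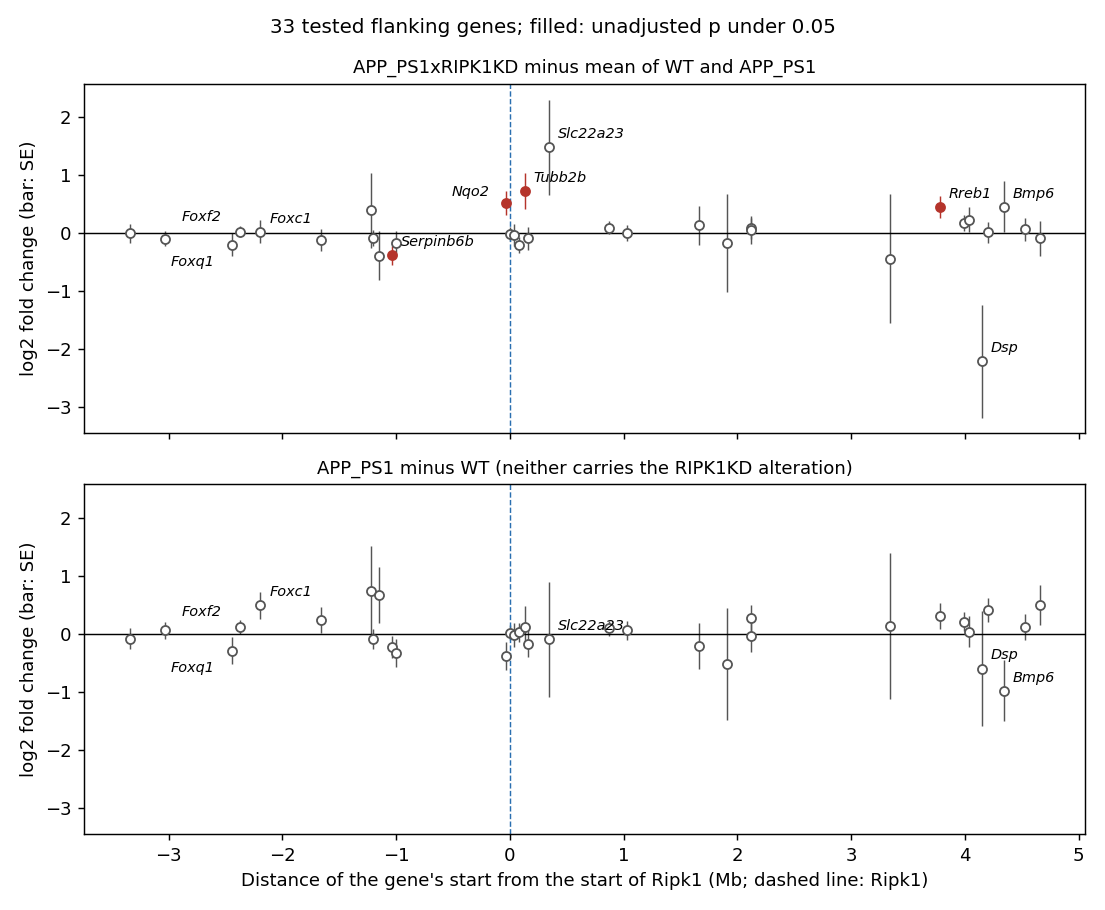
Log2 fold change (point) with its standard error (bar) of the 33 tested neighbours against the distance of their start from that of Ripk1 in Mb, for APP_PS1xRIPK1KD against the mean of both other genotypes (top) and for APP_PS1 against WT (bottom). Red points, with an unadjusted p under 0.05, number 4 above and 0 below, and lie both near Ripk1 and far from it.

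The remaining neighbours overlapped between the genotypes in every comparison. Of the signalling and transport genes, Dusp22, a phosphatase, ranged from 45.1 to 76.8 CPM (median 61.3), and Exoc2, a subunit of the exocyst that docks secretory vesicles, from 62.3 to 93.7 (median 77.6). Slc22a23, an orphan member of the organic ion transporter family, ranged from 0.12 to 5.61 CPM, with the highest value in APP_PS1xRIPK1KD replicate 2. Of the metabolic and mitochondrial genes, Eci2, an enzyme of unsaturated fatty acid oxidation, ranged from 80.8 to 113 CPM (median 97.5) and Gmds, which makes GDP-fucose precursors, from 14.4 to 22.6 (median 18.1). Lyrm4, a factor of iron-sulfur cluster assembly, ranged from 12.97 to 19.3 (median 16.1), and Fars2, the mitochondrial phenylalanyl-tRNA synthetase, from 10.6 to 19.2 (median 12.9).

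Of the genes for RNA, chromatin and protein quality, Ssr1, a subunit of the translocon-associated complex of the endoplasmic reticulum, ranged from 159 to 246 CPM (median 189). Prpf4b, a kinase of the spliceosome, ranged from 66.0 to 86.7 (median 73.7), Wrnip1, an ATPase of DNA repair, from 39.8 to 56.5 (median 51.5), and Txndc5, a protein disulfide isomerase, from 29.9 to 55.9 (median 45.0). Riok1, a kinase of ribosome maturation, ranged from 15.02 to 29.1 (median 21.5), Cdyl, a chromatin corepressor, from 4.24 to 8.40 (median 5.49), and Rpp40, a subunit of ribonuclease P, from 0.13 to 4.58 (median 1.74). For the 10 tested genes of this group the fitted differences from the mean ran from -0.17 to 0.23 on the log2 scale, and 0 had an unadjusted p under 0.05.

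Genes of immune cells and neurons were at or near 0. Irf4, a transcription factor of lymphocytes and macrophages, had 0 counts in 6 libraries, including all of WT, 2 counts in APP_PS1 replicate 2, 62 in APP_PS1 replicate 3 and 124 in APP_PS1xRIPK1KD replicate 1, the last being 2.53 CPM. F13a1, the A subunit of coagulation factor XIII and a macrophage gene, had counts in 3 libraries and at most 1.26 CPM. Ly86, which encodes the partner of a Toll-like receptor homologue on B cells and macrophages, ranged from 0.10 to 2.26 CPM and overlapped. Nrn1, a neuronal surface protein, did not exceed 0.06 CPM, and Fam50b had 1 count in 1 library. Irf4, F13a1, Nrn1 and Fam50b are the 4 neighbours that were not tested, each with 0 counts in at least 6 libraries.

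The authors' deposited table compares APP_PS1 with WT for 12460 genes, 33 of the neighbours among them. Of all genes, 26 (0.209%) pass an FDR of 0.05 in the authors' deposited table, and 0 of the neighbours do. The lowest FDR of a neighbour in the authors' deposited table is 0.508, for Irf4. In the authors' deposited table Foxq1 has a log2 fold change of -0.21 (FDR 0.979), Foxf2 of 0.07 (FDR 0.996) and Foxc1 of 0.45 (FDR 0.864). Of the 32 neighbours both in the authors' deposited table and in the fit made here, 31 have the same sign, from the same libraries.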

How the data were processed

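Smart-seq2 libraries of 20000 sorted cells each were sequenced with paired reads of 50 and 25 bases, per the labels' protocols, without strand or molecular identifiers, so floors are for counting error alone. Expected counts by gene symbol are the unit of the authors' deposited matrix. The submitters' processing notes name Bowtie 0.12.2, RSEM, edgeR 3.10.2 and mm10 (GRCm38), with no annotation named. Of the values 28.3% were not whole. The authors' deposited edgeR table gives log2 fold changes, p-values and a likelihood ratio score for APP_PS1 against WT.

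Expected counts were rounded. Genes were kept by filterByExpr (minimum count 10, minimum total 15; 13317 of 23420), scaled by TMM, and fitted in 1 edgeR 4.0.16 quasi-likelihood model (R 4.3.3, robust, 1 coefficient per genotype, 9 libraries), 2-sided, with Benjamini-Hochberg adjustment over all tested genes at 0.05. Limma 3.58.1 and DESeq2 1.42.0 served as alternatives, with other scalings and filters, a replicate block, each library left out, and replicates 1 and 2 only. Rn45s took 29.6% to 33.8% of counts in WT, 15.8% to 28.6% in APP_PS1 and 20.2% to 26.4% in APP_PS1xRIPK1KD. All WT libraries thus lay above the others in Rn45s, and it was left out in 1 alternative. The fit was tested on simulated data. CPM are counts scaled to TMM-adjusted library sizes; SE come from the F statistic. The 50-base and exon comparisons use GENCODE M21 transcripts.

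Every listed gene is named. A fold change is printed where the unadjusted p is under 0.05 or the groups do not overlap, and for the forkhead trio throughout. Otherwise it is printed for genes within 200 kb, Serpinb6a and Ripk1, and for Serpinb6b and Rreb1 over APP_PS1. That choice was made after values were seen. The members and lists were chosen with earlier results of these data known. No 2 libraries of a genotype held identical values. Replicate numbers recur across genotypes and go with the split in Xist and Y-linked transcripts. Deviations of same-numbered libraries correlated at -0.043 to 0.15, and the main fit did not pair them.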

Additional observations from a re-analysis of the deposited data

How the results depend on the processing

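The count of neighbours past the adjusted threshold was 0 in all 75 combinations of comparison and alternative. In all 75 the median log2 difference of the neighbours moved by less than the spread of their median level between libraries of a genotype. The medians, at -0.026 to 0.039 in the main fit, were smaller than that spread, so a change of their direction would not have shown. Fold changes were recomputed for Foxq1, Foxf2 and Foxc1 in every comparison. Other genes were included only where the main fit gave an unadjusted p under 0.05 or groups without overlap. Of these fold changes, 494 kept their direction, none passed the adjusted threshold, and the 12 that changed direction belong to Foxq1, Foxf2 and Foxc1. Genes picked in that way start away from 0, so their steady direction was largely fixed by the choice. For Foxc1 in APP_PS1xRIPK1KD against APP_PS1 the difference was -0.22, and without APP_PS1 replicate 2 it was 0.025. For Foxq1 in APP_PS1xRIPK1KD against APP_PS1, the value was 0.0071 with limma-voom and 0.26 in replicates 1 and 2 only. With 1 library left out it ran from -0.28 to 0.13. With 1 library left out, Foxf2 ran from -0.091 to 0.015 in that comparison and from -0.032 to 0.074 against the mean of both others, and Foxc1 from -0.45 to 0.025 and from -0.091 to 0.15. The unadjusted p against the mean of both others stayed under 0.05 in 14 of 18 alternatives for Nqo2, 12 of 18 for Rreb1, 11 of 18 for Tubb2b and 10 of 18 for Serpinb6b. These genes were picked for a p under 0.05 in the same libraries, so these counts are descriptions and no further test. The number of neighbours whose groups do not overlap grows with fewer libraries by construction. With 1 library left out it ran from 5 to 12 in APP_PS1 against WT, from 2 to 8 in APP_PS1xRIPK1KD against APP_PS1, from 3 to 9 against WT and from 1 to 2 against the mean, and in replicates 1 and 2 only it was 10, 8, 8 and 3. The share over all genes was not counted under these settings, so these counts are not a result about the neighbours. With the replicate number as a block, 0 neighbours were called in each comparison. Over all genes that fit called 2 in APP_PS1 against WT and 0 in the other comparisons. Deviations of same-numbered libraries correlated at -0.043 to 0.15 over 9 pairs, 1 of them over 0.1, and 2 libraries correlated best with their own number in both other genotypes. Depth limits the 5 neighbours under 1 CPM, 4 of which could not be tested.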
